A study of Mus musculus with 6 samples.

Results

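The nuclear genes of the mitochondrial respiratory complexes II to V were examined in bulk RNA of mouse splenocyte cultures. A row of the deposited count table was taken when its symbol was Sdha, Sdhb, Sdhc, Sdhd, Cyc1 or Cycs, or began with Uqcr, Cox4, Cox5, Cox6, Cox7, Cox8 or Atp5, and symbols ending in -ps were left out. This gave 49 of 23453 gene rows: 4 genes of complex II, 10 of complex III counted with cytochrome c, 18 of complex IV and 17 under the ATP synthase symbols of complex V. Not every symbol names a subunit. Cox7a2l is known as the gene of a supercomplex assembly factor. Atp5s and Atp5sl carry the older ATP synthase names of Dmac2l and Dmac2, of which Dmac2 is known as an assembly factor of complex I. The symbol rule also passes over Ndufa4 and Usmg5, which encode proteins now counted with complexes IV and V, and the subunits encoded by mitochondrial DNA were not analysed here.

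Electrons from NADH enter the respiratory chain at complex I, and those from succinate enter at complex II. Both routes reduce ubiquinone, which complex III oxidises, passing the electrons through cytochrome c to complex IV, where oxygen is reduced to water. Complexes I, III and IV pump protons across the inner membrane, complex II does not, and the ATP synthase, complex V, uses the proton gradient to make ATP. T lymphocytes that leave rest after antigen contact enlarge their mitochondria and use both glycolysis and respiration.

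The splenocytes came from C57BL/6 mice carrying OT1, a T cell receptor transgene that recognises a peptide of ovalbumin (OVA). The cultures received OVA peptide for 48 h, then 8 h of TCM (3 libraries titled TCM) or 8 h of FCM (3 libraries titled Vehicle). The labels spell out neither abbreviation, give the cell type as cytotoxic T lymphocytes and name no sorting step. No label says that replicates came from separate mice or cultures, so p-values reflect only how these libraries vary, and that variation may be technical. The count table and the normalized table of the series title the groups oppositely: dividing any normalized column by 1 fixed factor gives the counts titled with the other group and the same replicate number. TCM and Vehicle mean the count table's titles throughout, and every direction given here turns round if the other table's titles are the right ones.

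The libraries held 17166687 to 21197117 counts in TCM and 18729982 to 25789381 counts in Vehicle. Levels are given as CPM, each count relative to the total of its library after scaling by edgeR's TMM method, and a gene was called higher or lower when its adjusted p in edgeR's quasi-likelihood test, corrected over all 12423 genes tested, was under 0.05. Replicate 1 of both groups stood apart from the other libraries on the second principal component, which held 8.32% of the variance, against 86.4% on the first, which separated TCM from Vehicle. Markers of other spleen cells differed as well. The 10 neutrophil markers summed to 1135 to 2183 CPM in TCM, against 8071 to 12611 CPM in Vehicle, with 9 lower in TCM, and the 8 macrophage and monocyte markers to 105 to 113 CPM in TCM, against 508 to 612 CPM in Vehicle, with 6 lower. The 6 B cell markers summed to 911 to 1106 CPM in TCM, against 1723 to 2084 CPM in Vehicle, with 5 lower. The 6 T cell markers summed to 491 to 591 CPM in TCM, against 465 to 524 CPM in Vehicle. Of these, 1 was higher, 2 were lower and 3 did not pass the threshold. Of all genes tested, 28.8% were called higher and 30.0% lower. Markers of NK cells (14 to 18.4 CPM in TCM, against 22.5 to 26 CPM in Vehicle) and of dendritic cells (10.3 to 11.8 CPM in TCM, against 15.9 to 17.1 CPM in Vehicle) were low in both groups. Of 3 tested NK cell markers 2 were lower in TCM, and of 4 tested dendritic cell markers 2 were lower, with log2 differences down to -6.22. The 6 erythroid and platelet markers summed to 9.68 to 20.7 CPM in TCM, against 34.3 to 59.8 CPM in Vehicle, and Hba-a2 had no counts. Of the 4 of them that were tested, 3 were lower. In bulk RNA, fewer cells of a type and less RNA per cell cannot be told apart, and the part of these markers in the results below was not tested.

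Transcripts of complexes II to V were mostly more abundant in TCM. Of the 49 genes, 45 passed the filter on low counts; of these, 36 were higher, 1 was lower (Atp5sl) and 8 did not pass the test. Among all genes tested, 58.8% were called, 28.8% higher and 30.0% lower. The median log2 difference, TCM over Vehicle, was 0.85 over the 45 tested members, with a range of -0.47 to 5.66, and -0.018 over all genes tested. All 3 TCM libraries lay above all 3 Vehicle libraries for 27 of the 45 members, which is 60.0%, against 30.6% of all genes tested. TCM lay wholly below for Atp5sl alone, against 33.6% of all genes, and the groups overlapped for 17 members. Within the pairs of libraries that share a replicate number, 40 of 45 members were higher in TCM in all 3 pairs, against 40.5% of all genes tested. Of the 36 higher members, 19 were called in each of the 6 fits that left out 1 library, and the count fell to 19 without TCM replicate 2, when 22.7% of all genes were called higher.

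**Figure D1:**
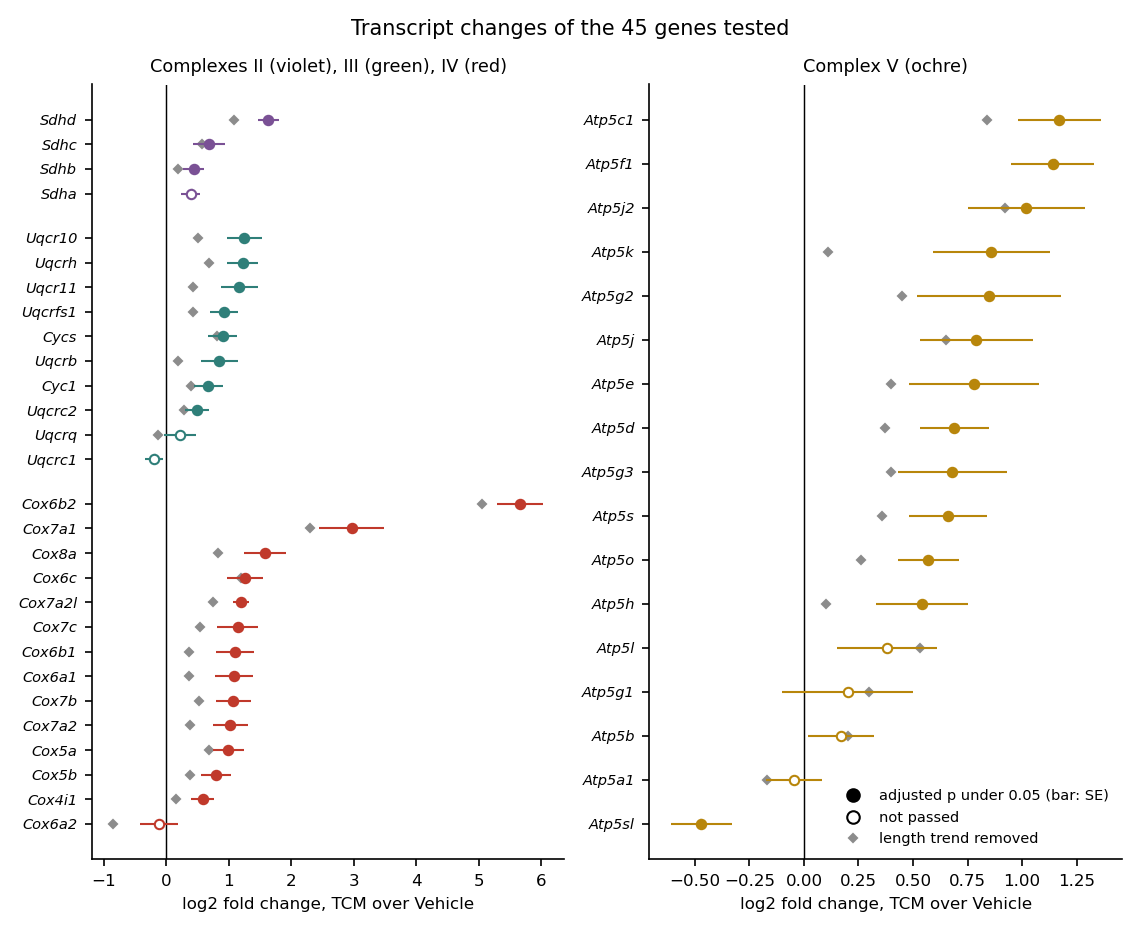
Log2 difference (TCM over Vehicle, titles of the count table) with its standard error for each tested member by complex, filled where the adjusted p was under 0.05, with grey diamonds for the difference after removal of the length trend. Complex IV had the highest median (1.09), Cox6b2 the highest value (5.66), and Atp5sl was the 1 member called lower.

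The summed level of all 49 genes was 8877, 13735 and 15142 CPM in TCM, against 5876, 7709.8 and 7755 CPM in Vehicle, a ratio of the means of 1.77. TCM replicate 1 was well below the other TCM libraries and not far above the highest Vehicle library, and Vehicle replicate 1 was the lowest of its group. By complex, the ratio of summed CPM was 1.83 for complex II, 1.72 for complex III, 2.11 for complex IV and 1.52 for complex V. The same order does not hold for the medians of the single genes' log2 differences, which were 0.56, 0.87, 1.09 and 0.68 in that sequence of complexes. No test was made between complexes.

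**Figure D2:**
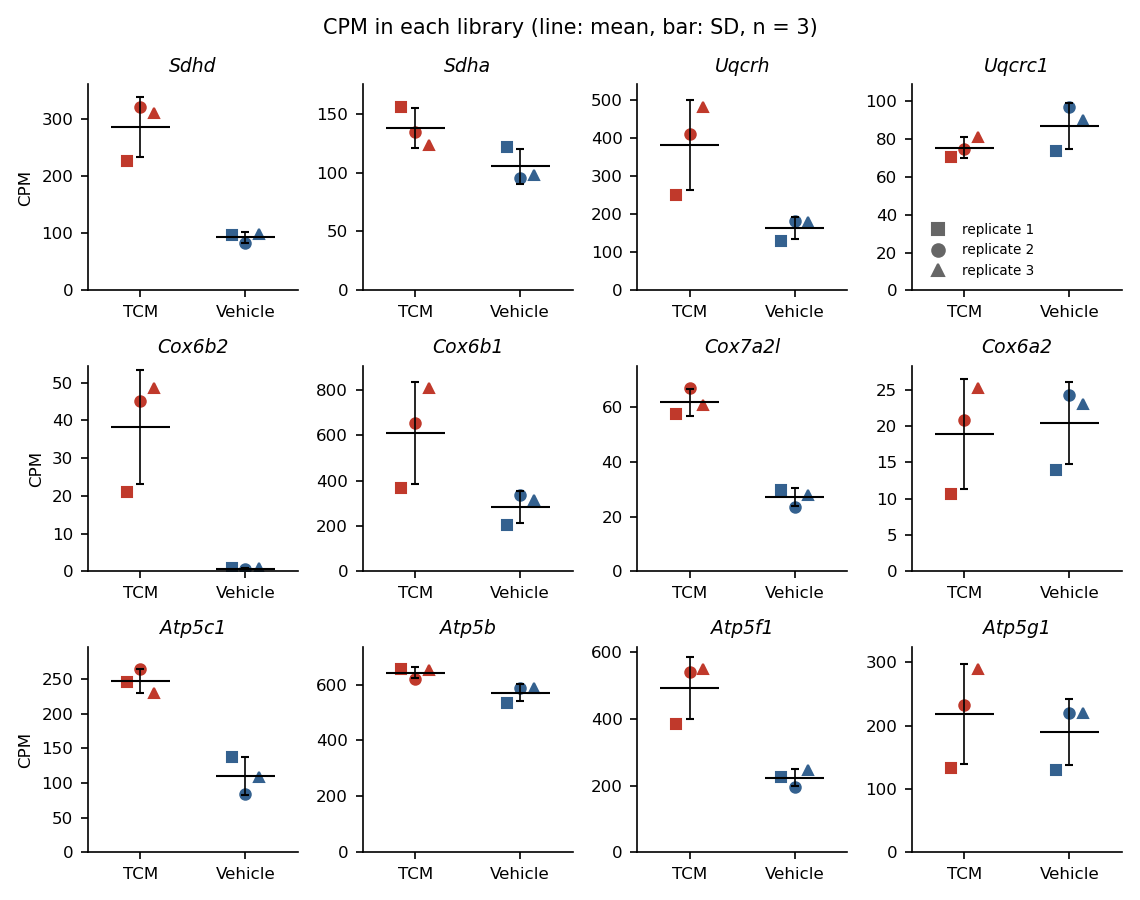
Level in each library (CPM) of selected members, TCM left of Vehicle by the count table's titles, with points for libraries, lines for means and bars for the SD (n = 3). Sdhd and Cox6b2 separated the groups widely, while the groups overlapped for Uqcrc1, Cox6a2 and Atp5g1.

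The promoters of the members were also read for short motifs. RefSeq (GRCm38.p6) gave a window of 250 bases before to 50 after the start for 38 of the 49 members, and each motif was searched on both strands. The binding motif of NRF1, a regulator known for its role in respiratory chain genes, was searched as GCGC and GCGC with any 2 bases between them. It was found in 10 of 38 members (26.3%), against 15.1% of the 9253 tested genes with a window and 7.0% of all 27025 genes with one. The motif CCGGAAG of ETS factors, the family of the respiratory regulator GABP, was found in 12 of 38 (31.6%). This compares with 20.3% of tested genes and 9.93% of all genes with a window. The hypoxia response core ACGTG was in 14 members (36.8%), against 29.6% of tested genes and 21.8% of all genes with a window. The E-box CACGTG, which contains ACGTG, was in 5 members (13.2%), against 11.9% of tested genes and 8.09% of all genes with a window. The YY1 motif AAGATGGC was in 4 members (10.5%), against 5.4% of tested genes and 3.19% of all genes with a window. CCAAT was in 22 members (57.9%), against 42.8% of tested genes and 41.1% of all genes with a window. The Sp1 motif GGGCGG was in 15 (39.5%), against 68.5% of tested genes and 38.2% of all genes with a window. Of the 30 higher members with a window, 8 had the NRF1 motif, 11 ETS, 9 ACGTG, 2 CACGTG, 3 YY1, 16 CCAAT and 13 Sp1. These 30 are among the 38, and whether any motif goes with the higher level was not tested. These counts and shares are descriptions and say nothing about binding. Stretches of 4 promoters with an ETS or NRF1 match are shown with the match in capitals, followed by the promoters of the isoform pair Cox6b2 and Cox6b1, whose changes differed most within a subunit, with no match in capitals. All are on the minus strand, written 5′ to 3′ in the direction of transcription, limited to bases outside annotated exons, and lie at chr9:50603850-50603909 (Sdhd), chr10:80406831-80406950 (Uqcr11), chr5:115348982-115349101 (Cox6a1), chr11:115419963-115420082 (Atp5h), chr7:4753095-4753214 (Cox6b2) and chr7:30626152-30626271 (Cox6b1).
Sdhd: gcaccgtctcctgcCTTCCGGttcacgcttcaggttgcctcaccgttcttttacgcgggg
Uqcr11: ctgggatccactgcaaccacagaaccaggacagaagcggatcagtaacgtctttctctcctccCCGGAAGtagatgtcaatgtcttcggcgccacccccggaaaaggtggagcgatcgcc
Cox6a1: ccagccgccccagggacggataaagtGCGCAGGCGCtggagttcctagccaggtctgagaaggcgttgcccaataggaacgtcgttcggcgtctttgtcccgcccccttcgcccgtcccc
Atp5h: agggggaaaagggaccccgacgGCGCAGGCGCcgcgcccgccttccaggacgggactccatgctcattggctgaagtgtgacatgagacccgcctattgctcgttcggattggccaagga
Cox6b2: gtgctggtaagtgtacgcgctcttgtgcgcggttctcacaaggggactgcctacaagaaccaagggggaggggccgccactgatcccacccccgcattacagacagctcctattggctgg
Cox6b1: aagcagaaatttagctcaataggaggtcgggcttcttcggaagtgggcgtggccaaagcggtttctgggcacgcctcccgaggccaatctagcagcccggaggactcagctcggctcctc

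In complex II, succinate dehydrogenase, the membrane anchor Sdhd changed most. Sdhd was at 226, 321 and 310.4 CPM in TCM, against 96.5, 82.1 and 99.3 CPM in Vehicle, so that the lowest TCM library was well above the highest Vehicle library. The log2 difference was 1.63 ± 0.17 (SE), or 3.08-fold, with an edgeR adjusted p of 7.99e-05. The other anchor, Sdhc, was at 173, 304 and 329 CPM in TCM, against 127, 187 and 187 CPM in Vehicle. The Sdhc groups overlapped through TCM replicate 1, and the log2 difference was 0.68 ± 0.26 (edgeR adjusted p = 0.0446).

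The 2 catalytic subunits of complex II differed less than Sdhd. Sdha, the flavoprotein that oxidises succinate, was at 156, 134 and 123 CPM in TCM, against 122, 95.3 and 98.2 CPM in Vehicle. The Sdha groups were separated by a narrow margin, and the log2 difference of 0.39 ± 0.15 missed the threshold (edgeR adjusted p = 0.0529). It passed with the replicate number as a block (adjusted p = 5.25e-04), with the length trend removed (adjusted p = 0.029) and without Vehicle replicate 1 (adjusted p = 0.0217). Sdhb, the iron-sulfur subunit, was at 74.7, 61.8 and 57 CPM in TCM, against 58, 43.1 and 41.4 CPM in Vehicle, with a log2 difference of 0.44 ± 0.17 (edgeR adjusted p = 0.045). The Sdhb call was lost without TCM replicate 1 (adjusted p = 0.0984), TCM replicate 2 (0.0863), Vehicle replicate 2 (0.134) or Vehicle replicate 3 (0.16). The Sdhc call was lost without TCM replicate 2 (adjusted p = 0.15), TCM replicate 3 (0.138) or any 1 of Vehicle replicates 1 (0.128), 2 (0.0641) and 3 (0.0682). Sdha and Sdhb were highest in replicate 1 of each group, whereas Sdhc was lowest there.

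In complex III, 8 of 10 genes were higher in TCM, against 28.8% of all genes tested. The 3 with the smallest p-values were Uqcrh, Uqcr10 and Uqcrfs1. Uqcrh, the hinge protein next to cytochrome c1, was at 251, 413 and 484 CPM in TCM, against 131, 182 and 180.0 CPM in Vehicle (log2 difference 1.22 ± 0.25, edgeR adjusted p = 0.00281). The small subunit Uqcr10 was at 199, 369 and 412 CPM in TCM, against 104, 157 and 152 CPM in Vehicle (log2 difference 1.25 ± 0.28, edgeR adjusted p = 0.00443). Uqcrfs1, the Rieske iron-sulfur protein that takes electrons from ubiquinol, was at 294, 473 and 514 CPM in TCM, against 189.9, 239 and 249 CPM in Vehicle (log2 difference 0.92 ± 0.22, edgeR adjusted p = 0.00709). For all 3 genes TCM lay wholly above Vehicle, with TCM replicate 1 nearest to the Vehicle libraries. The small subunit Uqcr11 (log2 difference 1.17, edgeR adjusted p = 0.00838), Uqcrb (0.85, adjusted p = 0.0318) and Cyc1, the cytochrome c1 gene (0.67, adjusted p = 0.0297), were higher as well. Uqcrb and Cyc1 did not pass without TCM replicate 2 (adjusted p = 0.101 for Uqcrb and 0.113 for Cyc1), TCM replicate 3 (0.103 and 0.0951) or Vehicle replicate 1 (0.0881 and 0.0872), nor did Cyc1 without Vehicle replicate 3 (0.0592).

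Cytochrome c itself, the soluble carrier between complexes III and IV, was higher in TCM. Cycs was at 93.8, 165 and 187 CPM in TCM, against 74.6, 82.1 and 82.8 CPM in Vehicle, and the groups did not overlap. The log2 difference was 0.90 ± 0.23, or 1.86-fold (edgeR adjusted p = 0.0093). Of the stretches of 50 bases in the Cycs transcripts, 28.5% also occur in other genes' transcripts, and how reads with several matches were counted is not given.

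Of the remaining 3 genes of complex III, Uqcrc2 was narrowly called and Uqcrc1 and Uqcrq were not. Uqcrc1, core protein 1, was at 70.4, 75.1 and 81.4 CPM in TCM, against 73.8, 97.3 and 90.3 CPM in Vehicle, with a log2 difference of -0.20 ± 0.14 (edgeR adjusted p = 0.237). Uqcrc2, core protein 2, was at 94, 74.2 and 60.4 CPM in TCM, against 64.9, 48.9 and 49 CPM in Vehicle, with a log2 difference of 0.49 ± 0.19 (edgeR adjusted p = 0.0475). Both pairs of groups overlapped, and the Uqcrc2 call was lost without TCM replicate 1 (adjusted p = 0.116), TCM replicate 2 (0.0997), Vehicle replicate 2 (0.137) or Vehicle replicate 3 (0.149). The small subunit Uqcrq was at 217, 399 and 429 CPM in TCM, against 231, 326 and 338 CPM in Vehicle (log2 difference 0.22 ± 0.26, edgeR adjusted p = 0.487). Its TCM replicate 1 was below all Vehicle libraries, and without that library the log2 difference was 0.47 (adjusted p = 0.0423).

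Complex IV, cytochrome c oxidase, held the highest share of called genes. In it, 13 of the 14 tested members were higher in TCM, against 28.8% of all genes tested. Setting aside the tissue-restricted isoforms Cox6a2, Cox6b2 and Cox7a1, all 11 remaining tested genes were higher, with a median log2 difference of 1.08 and a range of 0.58 to 1.58. This grouping was made after the values were seen. Cox8a, the smallest of the widely expressed subunits, was at 448, 845 and 1055 CPM in TCM, against 178, 307 and 300 CPM in Vehicle. All TCM libraries lay above all Vehicle libraries, and the log2 difference was 1.58 ± 0.33, or 2.99-fold (edgeR adjusted p = 0.00308). Cox4i1, a subunit linked to the assembly of the catalytic core, was at 326, 453 and 448 CPM in TCM, against 245, 277 and 299 CPM in Vehicle. It had the smallest difference of the 11, with groups that did not overlap and a log2 difference of 0.58 ± 0.18 (edgeR adjusted p = 0.0186), and the call was lost without TCM replicate 2 (adjusted p = 0.0836), TCM replicate 3 (0.0635), Vehicle replicate 1 (0.0535) or Vehicle replicate 2 (0.0563).

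The remaining widely expressed subunits of complex IV lay between these values. Cox6c (log2 difference 1.26), Cox7c (1.14), Cox6b1 (1.10), Cox6a1 (1.08), Cox7b (1.07), Cox7a2 (1.02), Cox5a (0.99) and Cox5b (0.79) were higher in TCM, with edgeR adjusted p-values of 0.00508 to 0.0194. Cox7c was the 1 gene among them whose groups overlapped, at 64.8, 137 and 176 CPM in TCM, against 41.7, 66.2 and 63.9 CPM in Vehicle. Cox6a1 was at 406, 727 and 852 CPM in TCM, against 212, 368 and 362 CPM in Vehicle. Cox7a2 was at 214, 396 and 432 CPM in TCM, against 126, 196 and 192 CPM in Vehicle. These 2 genes and Cox7b, at 369, 633 and 737 CPM in TCM, against 203, 325 and 300.4 CPM in Vehicle, showed the same picture: TCM replicate 1 was only slightly above the highest Vehicle library, and the other TCM libraries were far above it. Without TCM replicate 2 the adjusted p was 0.0598 for Cox7c, 0.0571 for Cox6a1 and 0.0532 for Cox7a2, and without Vehicle replicate 1 it was 0.0517 for Cox7c. Cox5b did not pass without TCM replicate 2 (adjusted p = 0.0695), TCM replicate 3 (0.0675) or Vehicle replicate 1 (0.0575). Cox7a2l, known as a factor for supercomplexes of complexes III and IV, was at 57.5, 67.2 and 60.8 CPM in TCM, against 29.9, 23.6 and 27.8 CPM in Vehicle. Whether its protein is functional in this mouse strain was not tested. The TCM libraries of Cox7a2l were close together and well above Vehicle, with a log2 difference of 1.19 ± 0.13, or 2.28-fold (edgeR adjusted p = 9.04e-05).

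Among the paired isoforms of complex IV, Cox6b2 stood far from the rest. Cox6b2, known as the testis isoform of subunit 6B, had 394, 691 and 867 counts in TCM, against 19, 17 and 20 counts in Vehicle. These are 21, 45.2 and 48.7 CPM in TCM, against 0.862, 0.636 and 0.775 CPM in Vehicle, with a wide gap between the groups. The log2 difference was 5.66 ± 0.37, or 50.4-fold (edgeR adjusted p = 4.59e-06). The widely expressed isoform Cox6b1 was at 367, 653 and 809.9 CPM in TCM, against 204, 337 and 313 CPM in Vehicle, a difference of 2.14-fold (edgeR adjusted p = 0.0119). No stretch of 50 bases in the transcripts of either gene occurs in another gene's transcripts. Per transcript length (CPM per kilobase), Cox6b2 made up 6.5 ± 0.617% of the 2 isoforms together in TCM and 0.319 ± 0.135% in Vehicle (SD, n = 3 each).

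The other isoform pairs shifted less. Cox6a2, the heart and skeletal muscle isoform of subunit 6A, was at 10.6, 20.8 and 25.3 CPM in TCM, against 13.9, 24.3 and 23.1 CPM in Vehicle, and the groups overlapped (log2 difference -0.12 ± 0.31, edgeR adjusted p = 0.755). Beside the higher Cox6a1, its share of the 2 isoforms per length was 2.31 ± 0.141% in TCM and 5.19 ± 0.0867% in Vehicle (SD, n = 3 each). Cox7a1, the heart and skeletal muscle isoform of subunit 7A, had 12, 24 and 31 counts in TCM, against 4, 6 and 2 counts in Vehicle (log2 difference 2.97 ± 0.52, edgeR adjusted p = 0.0012). Its level stayed low, and its share beside Cox7a2 was 0.546 ± 0.0877% in TCM and 0.149 ± 0.0796% in Vehicle (SD, n = 3 each). For the isoform shares of Cox6b2, Cox6a2, Cox7a1 and Atp5g1 the groups did not overlap. The two-sided exact permutation p was 0.1 for each, the smallest that 3 against 3 libraries allow. Cox4i2, the lung isoform of subunit 4, had 3, 3 and 2 counts in TCM and 3, 3 and 2 counts in Vehicle and was not tested. Cox7b2, Cox8b and Cox8c had no counts in any library, which allows up to 0.16 to 0.196 CPM in TCM and 0.112 to 0.136 CPM in Vehicle (3 counts per library, counting error only).

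**Figure D3:**
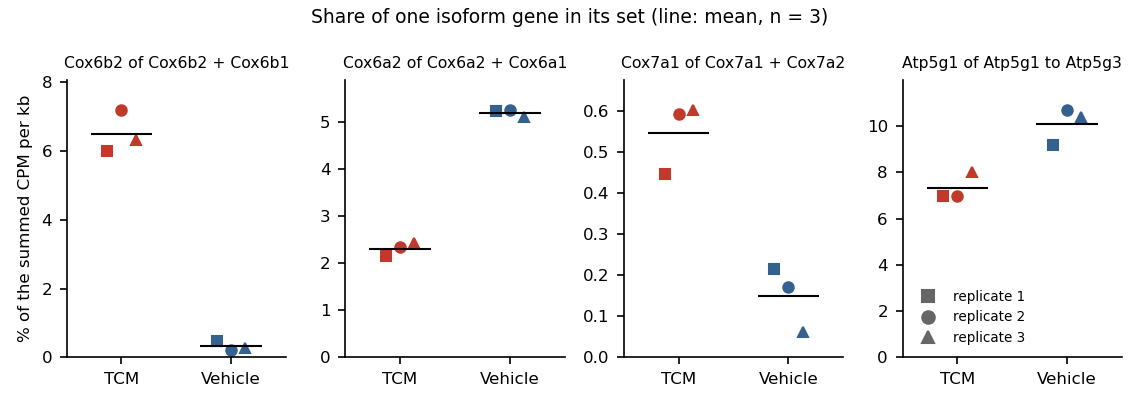
Share of an isoform in the summed level per length (percent, 1 point per library, TCM left of Vehicle by the count table's titles). Cox6b2 took 6 to 7.19% in TCM, against 0.21 to 0.469% in Vehicle, while the shares of Cox6a2 and Atp5g1 were lower in all TCM libraries. The shares were not corrected for the length trend.

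In complex V, the F1 head held both genes that did not pass the test and genes with clear differences. The F1 subunits alpha and beta form the catalytic ring. Atp5a1 (alpha) was at 276, 249 and 258 CPM in TCM, against 258, 284 and 267 CPM in Vehicle (log2 difference -0.046 ± 0.13, edgeR adjusted p = 0.78). Atp5b (beta) was at 657, 620.1 and 650.1 CPM in TCM, against 535, 587 and 589 CPM in Vehicle (log2 difference 0.17 ± 0.15, edgeR adjusted p = 0.333). The Atp5a1 groups overlapped, and those of Atp5b did not. Atp5c1 encodes the gamma subunit, the rotor axle inside that ring, and was at 245, 265 and 230.1 CPM in TCM, against 138, 83.5 and 108 CPM in Vehicle. Its TCM libraries all lay far above Vehicle, with a log2 difference of 1.17 ± 0.19, or 2.25-fold (edgeR adjusted p = 8.68e-04). Atp5d, the delta subunit of the central stalk, was at 301, 366 and 371 CPM in TCM, against 185, 230.0 and 229 CPM in Vehicle (log2 difference 0.69 ± 0.16, edgeR adjusted p = 0.00543). Atp5e, the epsilon subunit, was at 198, 417 and 438 CPM in TCM, against 152, 230.1 and 229.9 CPM in Vehicle, with overlapping groups (log2 difference 0.78 ± 0.30, edgeR adjusted p = 0.0477). The Atp5e call was lost without any 1 library other than TCM replicate 1 (adjusted p = 0.0689 to 0.166).

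Of the 10 genes of the Fo membrane part and the peripheral stalk, 8 were higher in TCM, against 28.8% of all genes tested. Atp5f1, the b subunit of the peripheral stalk, was at 384, 542 and 551 CPM in TCM, against 226, 197 and 248 CPM in Vehicle. The groups were well apart, and the log2 difference was 1.14 ± 0.19, or 2.2-fold (edgeR adjusted p = 8.68e-04). The other stalk genes Atp5o (log2 difference 0.57, edgeR adjusted p = 0.00715), Atp5j (0.79, 0.0272) and Atp5h (0.54, 0.0467) and the membrane subunits Atp5j2 (1.02, 0.0099) and Atp5k (0.86, 0.02) were higher too. Of these 5, Atp5h did not pass without any 1 library other than TCM replicate 1 (adjusted p = 0.0672 to 0.156). Atp5j (0.0525 to 0.1) and Atp5k (0.0532 to 0.0739) did not pass without TCM replicate 2, TCM replicate 3, Vehicle replicate 1 or Vehicle replicate 3. The Atp5o call was lost with totals alone in place of TMM (log2 difference 0.34, adjusted p = 0.0935), with the length trend removed (0.26, 0.0986) and with the transcript length trend removed (0.022, 0.909). In transcripts of Atp5o, Atp5f1 and Atp5h, 47.6%, 37.6% and 36.9% of the stretches of 50 bases also occur in other genes' transcripts. For Atp5o, these other genes include another gene model with the same symbol. Among other higher members, the share was 43.4% in Uqcrb, 38.3% in Atp5g2 and 32.0% in Cox5a. Atp5l, the membrane subunit g, had only 39, 35 and 48 counts in TCM, against 29, 53 and 54 counts in Vehicle (log2 difference 0.38 ± 0.23, edgeR adjusted p = 0.181). Of its stretches, 84.8% occur in transcripts of 14 other genes, so its low count is uncertain.

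The 3 genes for subunit c, whose identical mature proteins form the rotating ring, had positive log2 differences, and 2 of them passed the test. Differences between the 3 genes were not tested. Atp5g3 was at 409, 718 and 729 CPM in TCM, against 304, 422 and 431 CPM in Vehicle (log2 difference 0.68 ± 0.25, edgeR adjusted p = 0.0403). Atp5g2 was at 56.3, 92.9 and 137 CPM in TCM, against 34.3, 57.7 and 66.7 CPM in Vehicle (log2 difference 0.85 ± 0.33, edgeR adjusted p = 0.0492). Atp5g1 was at 133, 232 and 290.1 CPM in TCM, against 129.9, 219.6 and 220.4 CPM in Vehicle (log2 difference 0.20 ± 0.30, edgeR adjusted p = 0.576). The groups overlapped for all 3, and TCM replicate 1 was the lowest TCM library each time. Without TCM replicate 2 the adjusted p was 0.15 for Atp5g3 and 0.11 for Atp5g2, without TCM replicate 3 it was 0.12 and 0.181, and without Vehicle replicate 1 it was 0.116 and 0.135. Without Vehicle replicate 2 it was 0.068 for Atp5g3 and 0.0795 for Atp5g2, and without Vehicle replicate 3 it was 0.0664 for Atp5g3. Per length, Atp5g3 made up 78.2 ± 2.98% of the 3 genes in TCM and 77.2 ± 2.3% in Vehicle, and Atp5g1 7.31 ± 0.592% in TCM and 10.1 ± 0.798% in Vehicle (SD, n = 3 each). Atp5g1 has the longest transcripts, at 2675.5 bp, against 718.5 bp for Atp5g3 and 586 bp for Atp5g2. With the length trend removed, the log2 differences were 0.30 (Atp5g1), 0.40 (Atp5g3) and 0.45 (Atp5g2). With the transcript length trend removed, they were 0.25, 0.048 and 0.13, so that Atp5g1 was no longer the lowest.

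The 2 genes that carry ATP synthase names without encoding a subunit went opposite ways. Atp5sl was at 15.2, 16.2 and 19 CPM in TCM, against 20.1, 24.6 and 25.2 CPM in Vehicle. All its TCM libraries lay below Vehicle, and the log2 difference was -0.47 ± 0.14 (edgeR adjusted p = 0.0162), a call lost without TCM replicate 2 (adjusted p = 0.0674), Vehicle replicate 2 (0.0611) or Vehicle replicate 3 (0.065). Atp5s was at 6.01, 8.77 and 8.09 CPM in TCM, against 5.54, 4.34 and 4.58 CPM in Vehicle. Its groups did not overlap (log2 difference 0.66 ± 0.18, edgeR adjusted p = 0.0113), and without TCM replicate 2 the adjusted p was 0.0508.

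Levels of different genes were set side by side only per transcript length, as mean CPM per kilobase. In complex II they ran from 47.5 (Sdha) to 232 (Sdhd) in TCM and from 36.2 (Sdha) to 83.9 (Sdhc) in Vehicle. By these means Sdhd led in TCM and Sdhc in Vehicle, but in Vehicle replicate 1 Sdhd (78.4) was above Sdhc (63.9). In complex III they ran from 40.2 (Uqcrc2) to 807 (Uqcrh) in TCM and from 25.6 (Cycs) to 592 (Uqcrq) in Vehicle. The top of complex IV was Cox8a at 1423 CPM per kilobase in TCM and Cox6b1 at 586 in Vehicle, and the lowest tested gene was Cox7a1, at 3 in TCM and 0.367 in Vehicle. In complex V, Atp5g3 was highest, at 861 CPM per kilobase in TCM and 537 in Vehicle.

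Many members have short transcripts, and short transcripts tended to be higher in TCM across all genes. The median transcript length was 744 bp for the 44 tested members with a gene model and 2621 bp for all 11681 tested genes with one. Spearman's rho between transcript length and the log2 difference was -0.46 across those 44 members and -0.29 across those 11681 genes, as a description over genes that share the same libraries. Over 5 groups of all genes, of equal size and ordered from the shortest to the longest transcripts, the median log2 difference was 0.46, 0.13, -0.043, -0.19 and -0.36, and 45.7%, 33.1%, 28%, 21% and 15.5% of genes were called higher. Of the 44 members, 33 were in the group of the shortest transcripts, 7, 3 and 1 in the next ones and 0 in the longest. The large core subunits Sdha, Sdhb, Uqcrc1, Uqcrc2, Atp5a1 and Atp5b were grouped after their values were seen. They had a median length of 1906 bp and a median log2 difference of 0.28. Of the 6, 2 were called higher, against 28.8% of all genes tested. Outside that group, the members longer than 1906 bp were Cycs (3123 bp, log2 difference 0.90), Sdhc (1993 bp, 0.68) and Atp5g1 (2675.5 bp, 0.20). Cycs and Sdhc were called higher and Atp5g1 was not.

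The length trend removed next was that over all annotated exon bases of a gene, not over the transcript length used above. Genes without a gene model, such as Atp5sl, were left uncorrected. With this length trend of all genes removed, 23 of the 45 members were higher and 2 lower, against 29.2% of all genes called higher. The members' median log2 difference was then 0.40. The second lower gene in that fit was Cox6a2 (log2 difference -0.85, edgeR adjusted p = 8.49e-04). With the length trend removed and the replicate block, 34 members were higher, against 34.9% of all genes, 2 were lower and the median was 0.39. The members that were called higher before but not after removal of the length trend alone were Sdhb, Uqcrc2, Uqcrb, Cyc1, Cox4i1, Cox5b, Cox6a1, Atp5e, Atp5g2, Atp5g3, Atp5h, Atp5k, Atp5o and Atp5s. With the transcript length trend removed instead, the genes lost were not all the same: Atp5k passed (edgeR adjusted p = 0.0291) and Atp5d did not (0.151). Whether the length trend reflects RNA quality, library preparation or the cells was not tested. In all, 17 members were called higher under each alternative run on the count table's titles: Sdhd; Cycs, Uqcr10, Uqcr11, Uqcrfs1 and Uqcrh; Cox5a, Cox6b1, Cox6b2, Cox6c, Cox7a1, Cox7a2l, Cox7b and Cox8a; and Atp5c1, Atp5f1 and Atp5j2.

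**Figure D4:**
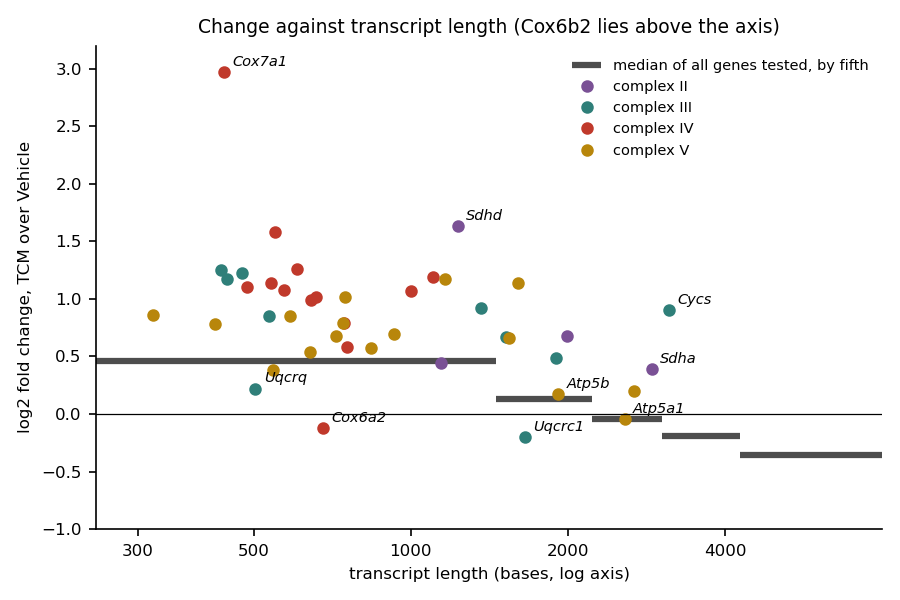
Log2 difference (TCM over Vehicle by the count table's titles) against transcript length (bases, log axis) for members, with bars for the median of all tested genes in each of 5 length groups and Cox6b2 (5.66) above the axis. Of the 44 members with a length, 33 lie in the group of the shortest transcripts, and the 6 large core subunits have a median difference of 0.28.

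Genes that build or accompany these complexes were higher in part. Of 37 tested assembly factors, 22 were higher, 2 lower and 13 did not pass, against 28.8% of all genes higher and 30.0% lower, with a median log2 difference of 0.68. The count of higher ones was 14 without TCM replicate 2, and the median was 0.31 with the length trend removed. Tmem70, which helps to assemble the ATP synthase, was at 129, 181 and 173 CPM in TCM, against 52, 47 and 50.4 CPM in Vehicle (log2 difference 1.69 ± 0.16, edgeR adjusted p = 3.65e-05). Lyrm7, needed for the insertion of the Rieske protein, was at 9.58, 14.9 and 14.5 CPM in TCM, against 3.99, 5.76 and 5.2 CPM in Vehicle (log2 difference 1.37 ± 0.21, edgeR adjusted p = 5.26e-04). The complex IV assembly factor Smim20, listed under its older symbol 1810013D10Rik, had a log2 difference of 1.14 ± 0.13 (edgeR adjusted p = 1.27e-04). The groups did not overlap for these 3 genes. The 2 lower genes were Lrpprc, which stabilises mitochondrial mRNAs (log2 difference -0.44, edgeR adjusted p = 0.00882), and Sco2, a copper carrier for complex IV (-0.42, adjusted p = 0.0467). Over the alternatives, their adjusted p-values reached 0.149 for Lrpprc and 0.17 for Sco2.

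In complex I, the proton pump fed by NADH, 25 of 35 tested subunit genes were higher, 0 lower and 10 did not pass. These calls are from edgeR's test, in which 28.8% of all genes were higher and 30.0% lower. The median log2 difference of the subunit genes was 0.96. At an unadjusted p under 0.05, 1 subunit gene was lower, and DESeq2 called 0 lower. With the replicate block 29 were higher, when 36.3% of all genes were called higher. The 2 lower in that fit were Ndufs1 (log2 difference -0.27, adjusted p = 0.0178) and Ndufs8 (-0.30, 0.00637), both with all TCM libraries below Vehicle. With the length trend removed 20 were higher and 2 lower, and with the transcript length trend removed 19 were higher and 3 lower. Without TCM replicate 1, 1 was lower. Ndufa8 (log2 difference 0.96, edgeR adjusted p = 4.00e-04), Ndufa9 (0.99, 4.10e-04) and Ndufv3 (1.42, 0.00134) were among the higher ones. Of 15 tested partners of the chain, 9 were higher and 1 lower, against 28.8% of all genes higher and 30.0% lower. Higd1a, a small protein that binds complex IV, was at 105, 176 and 228 CPM in TCM, against 34.9, 47 and 39.9 CPM in Vehicle (log2 difference 2.06 ± 0.27, edgeR adjusted p = 2.29e-04). Atpif1, the inhibitor of ATP hydrolysis by complex V, was at 97.2, 128 and 152 CPM in TCM, against 37.3, 45.5 and 47.3 CPM in Vehicle (log2 difference 1.54 ± 0.18, edgeR adjusted p = 1.50e-04). Both lay wholly above Vehicle. Sqrdl, which passes electrons from sulfide to ubiquinone, was at 3.99, 3.6 and 4.21 CPM in TCM, against 8.26, 7.89 and 8.18 CPM in Vehicle, all TCM libraries being lower (log2 difference -1.04 ± 0.13, edgeR adjusted p = 2.11e-04). Ndufa4 (log2 difference 1.16, edgeR adjusted p = 0.00805) and Usmg5 (1.13, 0.00989), the subunits that the symbol rule passes over, were higher.

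The genes for mitochondrial transcription and biogenesis were called at shares not far from those of all genes. Of 17 tested, 4 were higher (23.5%, against 28.8% of all genes), 6 were lower (against 30.0% of all genes) and 7 did not pass, with a median log2 difference of -0.33. With the replicate block, 5 were higher and 9 lower, when 36.3% of all genes were called higher. Twnk, the helicase of mitochondrial DNA, is listed as Peo1 and was at 7.66, 7.07 and 6.97 CPM in TCM, against 14, 14.1 and 14.2 CPM in Vehicle (log2 difference -0.96 ± 0.11, edgeR adjusted p = 1.37e-04). The coactivators Ppargc1b (log2 difference -0.65, edgeR adjusted p = 0.00325) and Pprc1 (-0.63, 0.00404) were lower, and their groups did not overlap. The higher genes were the nuclear receptor Esrra (log2 difference 0.84, edgeR adjusted p = 0.0102), Mterf1a, listed as Mterf (0.67, 0.0156), Mterf4, listed as Mterfd2 (0.39, 0.0206), and Gabpb1, a partner subunit of Gabpa (0.36, 0.0243). The last 3 fell short of the threshold with totals alone, at adjusted p-values of 0.111, 0.478 and 0.488. Gabpa, the DNA-binding subunit of GABP, was lower (log2 difference -0.50, edgeR adjusted p = 0.0197, up to 0.0793 over the alternatives), and its span overlaps that of Atp5j, so that reads of the 2 genes cannot be told apart where their exons meet. Nrf1 did not pass (log2 difference -0.23, edgeR adjusted p = 0.138).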

How the data were processed

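Exon reads per gene symbol were deposited as a table of whole-number counts, and a second deposited table holds a signal, gene counts divided by a size factor per library. The submitters' processing notes name STAR 2.7.2d, DESeq2 1.28.1 and the build mm10 without saying what each did. The counting tool and any use of strand were not given in the sources used here, so reads of overlapping genes (6 tested members overlap another tested gene) cannot be told apart. Columns were assigned by their titles. Whole reads were recovered for 100% of the normalized values (tolerance 0.1), matching the counts titled with the other group, so a count test on them gives the same calls with the sign turned. The 92 spike-in rows, all at 0, were left out.

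The counts were tested with edgeR 4.0.16 (R 4.3.3): low counts were filtered, libraries scaled by TMM, and the quasi-likelihood test of TCM against Vehicle was adjusted by Benjamini-Hochberg over 12423 genes. The common biological coefficient of variation was 15.3%, and Rn45s took 11.2 to 18.9% of counts. Alternatives were DESeq2 1.42.0, its size factors, totals alone, no filter, a replicate block, removal of the length trend, the other table's titles, and each library left out. Length in the length trend meant all annotated exon bases of a gene, and genes without a gene model were left uncorrected. Removing the trend by transcript length and leaving out replicate 1 of both groups were added after seeing the data. The labels give the replicate numbers without saying what they share. Deviations from the group means correlated at 0.600, 0.146 and 0.360 between same-numbered libraries, all over 0.1. However, TCM replicate 2 correlated higher with Vehicle replicate 3 (0.266) and TCM replicate 3 higher with Vehicle replicate 2 (0.424), so the pairing is uncertain. The main test used the group alone. The numbers were treated as pairs only in the fits with the replicate block and in the comparison of libraries that share a replicate number. No 2 libraries agreed within sampling noise. Gene models and the shared stretches of 50 bases are from GENCODE M21, found for 48 of the 49 members, and promoters from RefSeq (GRCm38.p6).

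Members, gene lists, markers and tests were chosen with earlier results of these data known, so counts over a list are no independent support. Named genes of the related lists were the 3 with the lowest p-values and those against the majority, and Gabpa, Nrf1, Ndufa4 and Usmg5 were chosen after their values were seen. Values after ± are standard errors from the edgeR fit or, where marked, SDs over the libraries of a group. The limit for genes without counts covers counting error only. The scripts were tested on simulated data.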

Additional observations from a re-analysis of the deposited data

How the results depend on the processing

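Of the 45 tested members, 34 of the 36 higher ones had a positive log2 difference under each alternative on the count table's titles, the exceptions being Atp5h (-0.12) and Cox4i1 (-0.016) with the transcript length trend removed. The count of higher members was 36, and 37 with DESeq2, 26 with totals alone (19.0% of all genes; lost were Sdhb, Sdhc, Uqcrc2, Cox4i1, Atp5e, Atp5g2, Atp5g3, Atp5h, Atp5o and Atp5s), 23 with either length trend removed, 34 with the length trend removed and the block, and 19 to 35 with 1 library left out, 19 without TCM replicate 2. With the replicate block it was 37 (36.3% of all genes called higher), with 1 lower, and beside Sdha the block changed no other call. The count of lower members was 1, and 2 with the length trend removed, with or without the block, 4 with the transcript length trend removed, 2 without replicate 1 of both groups and 0 to 1 with 1 library left out. The median log2 difference was 0.85, and 0.40 with the length trend removed, 0.39 with that and the block, 0.36 with the transcript length trend removed and 0.63 to 1.1 with 1 library left out. By the other table's titles, 1 member was higher, 36 were lower and the median was -0.85.

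Other than in Atp5h and Cox4i1, signs turned in genes that had not passed the test. With totals alone, which shift the median of all genes by -0.21, the log2 difference was -0.036 for Atp5b, -0.042 for Atp5g1 and -0.024 for Uqcrq. Uqcrq was at -0.14 with the length trend removed, -0.15 with that and the block, and -0.54 with the transcript length trend removed, where Atp5l was at -0.31. In that last fit Uqcrq was called lower (edgeR adjusted p = 0.00232), and without replicate 1 of both groups it was called higher (0.31, adjusted p = 0.00139). Uqcrc1 was called lower in both of these fits (-0.38, adjusted p = 0.0185, and -0.27, adjusted p = 0.00728). With 1 library left out, Atp5g1 ranged from -0.052 without TCM replicate 3 to 0.46 without TCM replicate 1 (-0.0094 without Vehicle replicate 1), and Cox6a2 from -0.39 without TCM replicate 3 to 0.17 without TCM replicate 1 (0.031 without Vehicle replicate 2). The causes were not tested. Members near the threshold, such as Sdhb, Sdhc, Uqcrc2, Atp5e and Atp5g2, rest on 3 libraries per group, and the low counts of Cox7a1 and Atp5l limit their precision.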
